A study of Mus musculus with 12 samples.

Results

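The fibroblast growth factor (FGF) genes followed here were the 40 rows, of 23284 in the count table, whose symbols name an FGF, an FGF receptor, the decoy receptor Fgfrl1, the binding proteins Fgfbp1 and Fgfbp3, or a feedback gene of the Sprouty, Spred, Dusp, Etv and Il17rd kind. They comprised 18 secreted ligands, 4 intracellular FGFs, 4 receptors, 1 decoy receptor, 2 binding proteins, 8 feedback inhibitors and 3 ETS transcription factors. The rule uses gene symbols and no measured value, though the set was picked for description with earlier results of these data known. RNA was sequenced from 12 single whole mouse embryos, staged at 9.0 dpc with 9 to 10 somites, of C57BL/6 x 129Sv background. The 8 embryos with CDKO in their titles are labelled Tgif1;Tgif2 null and are called conditional double mutants in the series text. The other 4 are labelled wild type. Which exons were floxed or deleted, and which driver acted on the conditional allele, the sources used here do not say.

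Tgif1 and Tgif2 encode related homeodomain repressors, and Tgif1 counts alone were lower under the mutant label. Tgif1 averaged 6.2 ± 0.528 CPM (reads per 1000000 scaled reads) in CDKO-labelled embryos and 60.9 ± 2.52 CPM in wild type (SD, n = 8 and 4), while Tgif2 averaged 97.9 ± 11.8 CPM in CDKO-labelled embryos and 87.4 ± 1.17 CPM in wild type. Reads from undeleted exons would still be counted, and loss of Tgif2 is known here from the labels alone. Total counts ranged from 16802367 to 21346245 in CDKO-labelled embryos and from 17296017 to 20080786 in wild type. Over 14 tailbud and presomitic markers, CDKO-labelled embryo 2 had the lowest summed level, 89.5 CPM, with Msgn1 at 0 and Cdx4 at 0.238 CPM, where the other CDKO-labelled embryos summed to 183.1 to 320.7 CPM.

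FGF ligands bind tyrosine kinase receptors together with heparan sulfate and activate the RAS and ERK cascade, which induces Etv transcription factors and a set of inhibitors (Sprouty, Spred, Dusp and Il17rd) that dampen the same cascade. In embryos of this age FGF sources include the tailbud, the midbrain-hindbrain boundary, the anterior edge of the forebrain, the pharyngeal region and the hindbrain beside the inner ear. Spry, Dusp6 and Etv transcripts are in common use as readouts of FGF signalling. The 12 libraries are of whole embryos, so fewer cells of an expressing tissue and less RNA per cell cannot be told apart.

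Of the 40 members, 33 had enough counts to be tested. Of these 5 were higher and 12 lower in CDKO-labelled embryos at an adjusted p under 0.05, and 16 did not pass. Over all 14412 genes tested 51.5% were called, 26.6% higher and 24.9% lower, so the 17 members called, 51.5% of those tested, make up the same share as the background. By direction, 15.2% of the members tested were higher and 36.4% lower, a division that was not tested against the background. The median log2 fold change was -0.13 over the 33 members and 0.01 over all genes. By at least 1.5-fold, 5 members were lower and 1 was higher, while 4.65% of all genes were lower and 11.9% higher by that much. In 10 members every CDKO-labelled embryo lay below every wild-type embryo and in 3 every one lay above. Over all genes the groups were separate in 34.7%, with 17.1% below and 17.5% above. Without CDKO-labelled embryo 2 and wild-type embryo 1 together, 10 members were lower and 5 higher. Over all 14489 genes tested in that fit, 2995 were lower and 3347 higher. Corrected for GC content and transcript length, 15 members were lower and 5 higher. That correction also moved the calls over all 14412 genes, to 4507 lower and 3253 higher, against 3583 lower and 3840 higher without it.

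**Figure D1:**
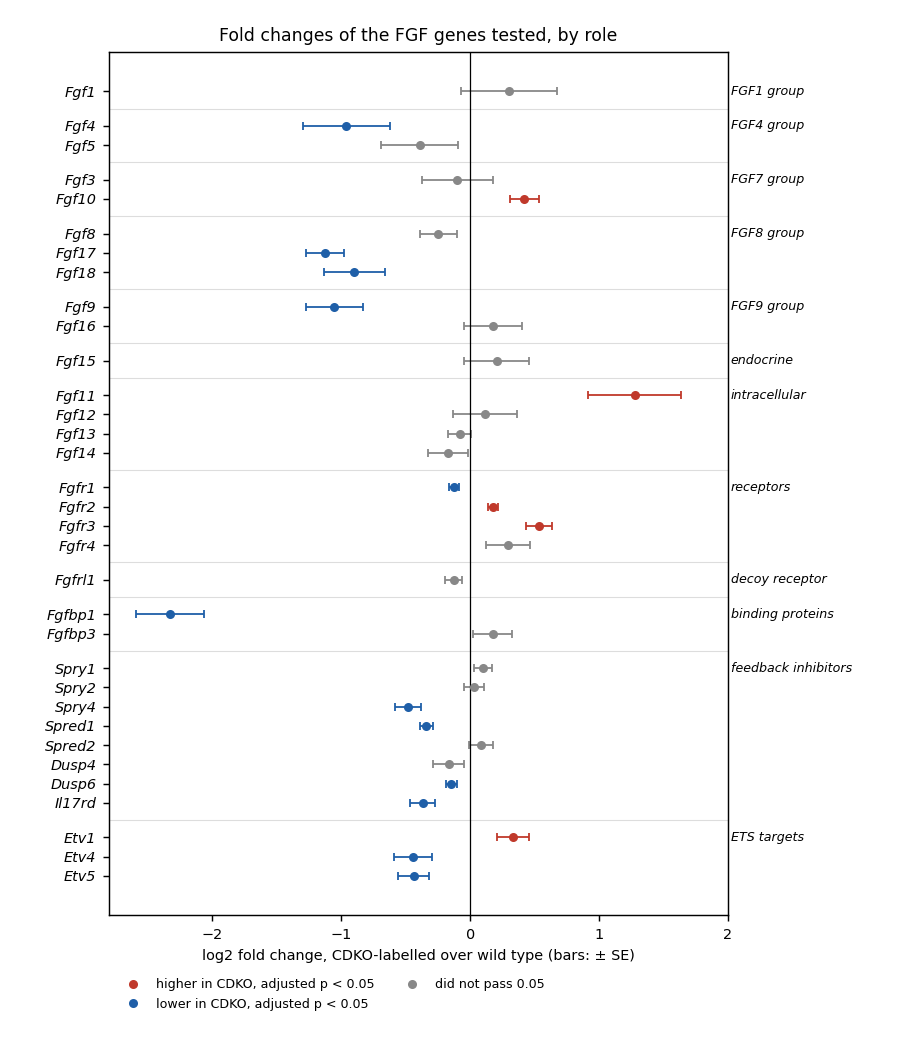
Log2 fold changes (x axis, CDKO-labelled over wild type) of the 33 FGF genes tested, grouped by role down the page, with bars of 1 SE on either side. Fgfbp1 lies farthest to the left at -2.33, followed by Fgf17 at -1.13 and Fgf9 at -1.05, and Fgf11 lies farthest to the right at 1.28.

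The summed level of the FGF8 group of ligands was 23.6 to 34.9 CPM in CDKO-labelled embryos, against 46.0 to 49.1 CPM in wild type. Fgf8, Fgf17 and Fgf18 encode closely related ligands made at the midbrain-hindbrain boundary and at other sites. Fgf17 had 6.38, 8.86 and 11.2 CPM as its lowest, median and highest values in CDKO-labelled embryos, against 19.0, 20.1, 19.2 and 19.3 CPM in wild-type embryos 1 to 4. Every CDKO-labelled embryo lay below every wild-type embryo, and the wild-type values were nearly equal. The fall was 2.18-fold (log2 fold change -1.13, SE 0.15, adjusted p = 1.45e-05). Fgf18 had 1.52, 3.74 and 5.38 CPM as its lowest, median and highest values in CDKO-labelled embryos, against 5.79, 7.85, 6.74 and 8.72 CPM in wild type. These groups did not overlap either, and CDKO-labelled embryo 2 was the lowest of all. Fgf18 fell by 0.90 on the log2 scale (SE 0.24, adjusted p = 0.00557).

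Fgf8 did not pass the test. It had 11.8, 18 and 22.8 CPM as its lowest, median and highest values in CDKO-labelled embryos, against 21.6, 19.9, 20 and 21 CPM in wild type. The CDKO-labelled values spread on both sides of the wild-type range, and 7 of the 8 lay below the wild-type mean (log2 fold change -0.25, SE 0.14, adjusted p = 0.162). Corrected for GC content and length, Fgf8 passed, at -0.48 (SE 0.11, adjusted p = 0.00193), in a setting that moved calls over all genes towards lower. The highest Fgf8 level of all 12 libraries, 22.8 CPM, was that of CDKO-labelled embryo 2, which was also the lowest in Fgf17 at 6.38 CPM. Within each embryo there were 0.28 to 0.658 Fgf17 counts per Fgf8 count in the CDKO-labelled group and 0.879 to 1.01 in wild type, a ratio that does not depend on library scaling. Per kilobase of transcript, Fgf17 made up 22.1% ± 3.42 of the summed FGF8 group level in CDKO-labelled embryos and 32% ± 1.09 in wild type (SD, n = 8 and 4). These ratios were formed after the values were seen and carry no test.

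Fgf9, a ligand of mesothelial, epithelial and neural tissue, had 1.56, 2.69 and 4.05 CPM as its lowest, median and highest values in CDKO-labelled embryos, against 4.23, 6.43, 6.16 and 5.13 CPM in wild type. The groups did not overlap, with a narrow gap between the highest CDKO-labelled and the lowest wild-type embryo. Its log2 fold change was -1.05 (SE 0.22, adjusted p = 0.000981). Fgf4, a ligand of the primitive streak and presomitic mesoderm, had 0.343, 2.2 and 2.43 CPM as its lowest, median and highest values in CDKO-labelled embryos, against 4.4, 3.09, 2.53 and 3.99 CPM in wild type. The groups did not overlap, but CDKO-labelled embryos 7 and 8, at 0.873 and 0.343 CPM, lay well below the other 6. Fgf4 fell by 0.96 on the log2 scale (SE 0.34, adjusted p = 0.0277). Of the ligand calls it had the largest adjusted p. It was lost when wild-type embryo 1 (adjusted p = 0.0893) or 4 (0.0759) was left out, and it held without CDKO-labelled embryos 7 and 8, at -0.68 (adjusted p = 0.00431).

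Fgf10 was the secreted ligand gene that rose. It encodes a mesenchymal ligand of the FGFR2 epithelial isoform, known for limb and lung outgrowth and expressed in the second heart field. It had 16.3, 19.3 and 25.2 CPM as its lowest, median and highest values in CDKO-labelled embryos, against 13.8, 14.6, 15.3 and 16.8 CPM in wild type. All 8 CDKO-labelled embryos lay above the wild-type mean and 7 above the wild-type range, which gave 0.42 on the log2 scale (SE 0.11, adjusted p = 0.00547). Fgf10 shares exon sequence with an antisense gene, and no source used here gives the strand setting of the counting.

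The remaining ligands that were tested did not pass. Fgf3, a hindbrain ligand that acts in ear development, had 5.06, 12.1 and 17.1 CPM as its lowest, median and highest values in CDKO-labelled embryos, against 13.8, 12.4, 10.1 and 12.2 CPM in wild type (adjusted p = 0.784). Fgf15, a mouse gene of the endocrine group that is expressed in the embryonic brain, had 18.2, 38.4 and 50.8 CPM as its lowest, median and highest values in CDKO-labelled embryos, against 38.4, 31.3, 24.9 and 31.7 CPM in wild type (adjusted p = 0.525). In both genes 6 CDKO-labelled embryos lay within or above the wild-type range while embryos 7 and 8 lay below it. Fgf15, like Fgf10, shares exon sequence with antisense genes, here 2 of them. Fgf1, Fgf5 and Fgf16 were low, with group means between 0.553 and 1.73 CPM, and had log2 fold changes of 0.30, -0.39 and 0.18. The 7 untested members, Fgf2, Fgf6, Fgf7, Fgf20, Fgf21, Fgf22 and Fgf23, had 61 counts or fewer over the 8 CDKO-labelled libraries and 16 or fewer over the 4 wild-type libraries. Fgf21 had 1 count in the CDKO-labelled libraries and 3 in wild type.

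**Figure D2:**
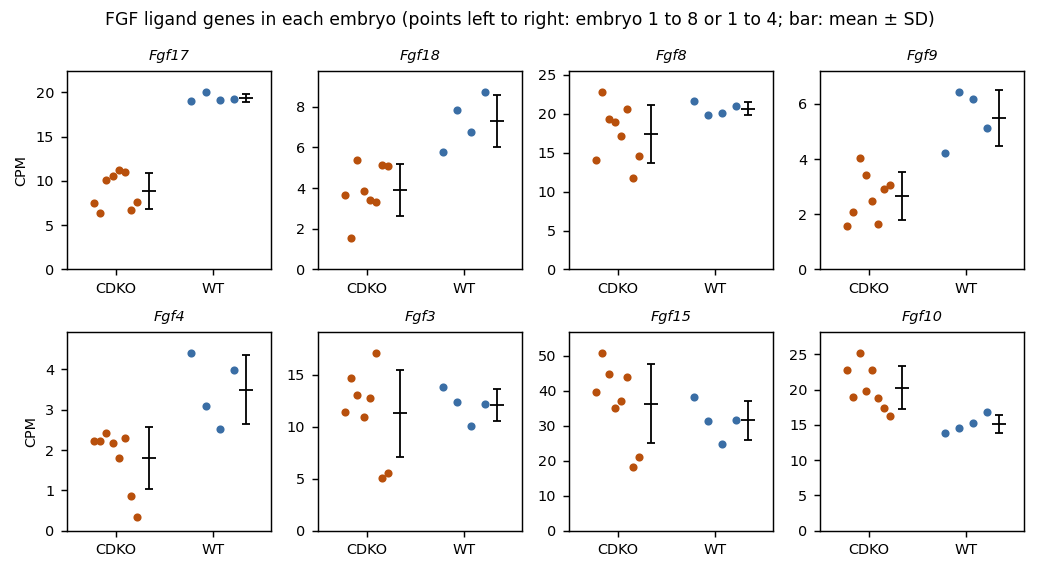
CPM (y axis, from 0) of 8 FGF ligand genes in each embryo, with CDKO-labelled embryos 1 to 8 left of wild-type embryos 1 to 4 and the mean ± SD beside each group. Fgf17, Fgf18, Fgf9 and Fgf4 show no overlap between groups, and in Fgf3, Fgf4 and Fgf15 the last 2 CDKO-labelled points, embryos 7 and 8, lie below the other 6.

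Promoter windows were found in RefSeq for 30 of the 40 members. The windows of the genes that fell by at least 1.5-fold and have an entry are shown, as the 250 bases before the start that the RefSeq promoter table uses in GRCm38.p6, read 5′ to 3′ on the gene's strand, to let the upstream sequences of genes that moved the same way be set side by side. Capitals mark CTGTCA or its reverse complement TGACAG, the first 6 letters of CTGTCAA, a known binding sequence of TGIF proteins. The windows are chr7:144861136-144861385 (plus strand) for Fgf4, chr14:58072436-58072685 (plus strand) for Fgf9, chr11:33147401-33147650 (minus strand) for Fgf18 and chr5:43981800-43982049 (minus strand) for Fgfbp1. Other annotated starts lie elsewhere: the RefSeq gene span of Fgf9 begins upstream of its window, so the window lies inside that span, and the span of Fgfbp1 reaches into the near end of its window.
Fgf4: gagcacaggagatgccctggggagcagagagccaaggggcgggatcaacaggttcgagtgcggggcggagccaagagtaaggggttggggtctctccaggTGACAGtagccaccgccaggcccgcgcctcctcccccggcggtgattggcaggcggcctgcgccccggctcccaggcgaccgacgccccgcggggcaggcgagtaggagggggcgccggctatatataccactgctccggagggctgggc
Fgf9: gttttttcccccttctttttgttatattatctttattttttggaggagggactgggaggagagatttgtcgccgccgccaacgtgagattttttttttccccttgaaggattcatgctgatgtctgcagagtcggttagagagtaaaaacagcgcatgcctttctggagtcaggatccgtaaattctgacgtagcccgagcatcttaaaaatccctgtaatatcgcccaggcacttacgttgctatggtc
Fgf18: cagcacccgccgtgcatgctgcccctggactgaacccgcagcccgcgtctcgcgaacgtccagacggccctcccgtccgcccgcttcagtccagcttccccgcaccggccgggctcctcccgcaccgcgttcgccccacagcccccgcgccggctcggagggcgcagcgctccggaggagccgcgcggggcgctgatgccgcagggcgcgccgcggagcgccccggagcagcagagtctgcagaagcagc
Fgfbp1: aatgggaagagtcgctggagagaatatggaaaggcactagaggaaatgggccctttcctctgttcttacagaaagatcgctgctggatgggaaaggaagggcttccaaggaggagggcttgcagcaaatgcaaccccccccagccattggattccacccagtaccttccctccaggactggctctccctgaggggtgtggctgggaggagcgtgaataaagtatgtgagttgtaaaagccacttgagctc
The Fgf4 window held the 6 letters once, at 150 bases before the start, and the windows of Fgf9, Fgf18 and Fgfbp1 did not hold them. On either strand CTGTCA was in 3 of 39 windows of the members (7.69%) and in 15.9% of all 32841 windows of this length. The longer CTGTCAA was in 0 of the 39 and in 2.95% of all. The ETS-type sequence CCGGAAG was in 1 of the 39, that of Fgfrl1, and in 6.91% of all. The 4 windows were unlike in composition: GC content was 77.2% for Fgf18, 71.2% for Fgf4, 53.6% for Fgfbp1 and 44.8% for Fgf9, against a median of 52.4%. These counts describe letters in a short window and not binding.

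Marker lists of tissues that make these ligands were read against the 51.5% of all genes called. The share called was 71.4% for tailbud and presomitic, 25.0% for midbrain-hindbrain boundary, 55.6% for anterior forebrain and 54.5% for pharyngeal, heart field and otic markers. Of 14 tailbud and presomitic markers 10 fell and none rose, with Nkx1-2 at -1.97, Cdx1 at -1.41 and Wnt3a at -0.78 on the log2 scale, and their summed level was 89.5 to 320.7 CPM in CDKO-labelled embryos, against 379.5 to 545.9 CPM in wild type. Of 8 midbrain-hindbrain boundary markers 1 rose (Wnt1, 0.54, adjusted p = 0.04995) and 1 fell (Gbx2, -0.31), and the sums overlapped, at 127.2 to 183.0 CPM in CDKO-labelled embryos, against 143.0 to 192.2 CPM in wild type. Of 9 anterior forebrain markers 4 fell, among them Nkx2-1 (-2.88) and Six3 (-0.79), and Dlx5 rose (0.40), with sums of 65.8 to 115.8 CPM in CDKO-labelled embryos, against 100.6 to 155.8 CPM in wild type. Of 11 markers of the pharyngeal arches, heart field and otic placode 5 rose and 1 fell, with Hand2 at 0.68 and Mef2c at 0.45 among the rises. Their sums did not overlap, at 288.5 to 352.9 CPM in CDKO-labelled embryos, against 253.2 to 256.1 CPM in wild type. None of the 7 primitive red cell and 9 yolk sac endoderm markers tested passed. Hba-a1 was at 0 in all libraries, as were the globin genes Hba-a2, Hbb-b1 and Hbb-b2. Whether reads of these globin genes were present but not assigned was not tested. Red cell sums were 36.9 to 1674 CPM in CDKO-labelled embryos, lowest in embryo 2, and 783.9 to 1307 CPM in wild type. At an unadjusted p under 0.05, 1 red cell marker, Klf1, and no yolk sac marker lay past the limit in edgeR. The part of tissue makeup in the ligand results was not tested.

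Fgfr1 and Fgfr2 were abundant, and the receptor genes moved by less than 1.5-fold, in both directions. Per kilobase of the longest protein-coding transcript, Fgfr1 was the most abundant of the 40 members, at 41.6 ± 1.51 CPM per kilobase in CDKO-labelled embryos and 45.4 ± 0.932 in wild type (SD, n = 8 and 4). Fgfr2 followed among the receptors at 33.5 ± 0.794 in CDKO-labelled embryos and 29.7 ± 1.29 in wild type, then Fgfr3 at 11.3 ± 1.42 in CDKO-labelled embryos and 7.84 ± 0.879 in wild type. Fgfr4 was the lowest, at 4.26 ± 0.923 in CDKO-labelled embryos and 3.47 ± 0.715 in wild type. The order of the 4 levels was the same in both groups, and neighbours in it differed by more than their SD.

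Fgfr3, a receptor of neural and skeletal tissue, had 39.3, 49.3 and 55.7 CPM as its lowest, median and highest values in CDKO-labelled embryos, against 31.2, 29.4, 37.8 and 34.8 CPM in wild type. All CDKO-labelled embryos lay above all wild-type embryos (log2 fold change 0.53, SE 0.10, adjusted p = 0.000436). Fgfr2, the receptor of epithelia and their mesenchyme, had 139.6, 145.0 and 149.7 CPM as its lowest, median and highest values in CDKO-labelled embryos, against 122.1, 124.5, 134.1 and 131.0 CPM in wild type. Again the groups did not overlap, by a smaller 0.17 on the log2 scale (SE 0.04, adjusted p = 0.00155). Fgfr1, the main mesodermal receptor at this age, had 197.9, 209.3 and 220.1 CPM as its lowest, median and highest values in CDKO-labelled embryos, against 226.5, 234.4, 223.6 and 230.5 CPM in wild type. It fell in level with no overlap, by 0.13 on the log2 scale (SE 0.04, adjusted p = 0.0136). Fgfr4 did not pass (0.29, SE 0.17, adjusted p = 0.169), and without CDKO-labelled embryos 7 and 8 it passed at 0.42 (adjusted p = 0.0203). Those embryos, at 11.1 and 9.37 CPM, were the lowest of the CDKO-labelled group in Fgfr4. They were picked after the values were seen, so leaving them out raised this fold change by construction.

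Of the summed receptor level per kilobase, Fgfr1 made up 43.9% to 48.3% in CDKO-labelled embryos and 50.7% to 54.0% in wild type. Fgfr3 made up 10.4% to 14.2% in CDKO-labelled embryos and 8.05% to 10.2% in wild type. Without division by length, the 4 receptor genes summed to 405.7 to 429.9 CPM in CDKO-labelled embryos, against 388.6 to 410.4 CPM in wild type, and these ranges overlapped. Fgfr1, Fgfr2 and Fgfr3 each overlap another annotated gene, and the counts do not separate receptor isoforms.

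Fgfbp1 fell more than any other member. It encodes a secreted carrier that releases FGFs from heparan sulfate and is known from epithelia. It had 0.148, 0.273 and 0.466 CPM as its lowest, median and highest values in CDKO-labelled embryos, against 1.62, 1.52, 1.44 and 1.1 CPM in wild type. The gap between the groups was wide, at 42 counts over the 8 CDKO-labelled libraries and 105 over the 4 wild-type libraries. The fall was 5.02-fold (log2 fold change -2.33, SE 0.26, adjusted p = 4.11e-06), at a low level in both groups. Fgfbp3, another carrier, did not pass (0.17, SE 0.15, adjusted p = 0.36). The decoy receptor gene Fgfrl1, whose product binds FGFs without a kinase domain, averaged 38.7 ± 1.67 CPM in CDKO-labelled embryos and 42.2 ± 4.83 CPM in wild type (log2 fold change -0.13, adjusted p = 0.119). Wild-type embryo 1 lay at 35.3 CPM in Fgfrl1 and the other wild-type embryos at 43.3 to 46.4 CPM, and without that embryo it passed (log2 fold change -0.21, adjusted p = 0.00856). It also passed after correction for GC content and length, with all embryos kept (-0.30, adjusted p = 0.00159). That setting moved calls over all genes towards lower.

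Of the intracellular FGFs, which are not secreted and bind sodium channels in neurons, Fgf11 rose. It had 0.706, 1.17 and 2.15 CPM as its lowest, median and highest values in CDKO-labelled embryos, against 0.464, 0.355, 0.576 and 0.698 CPM in wild type. The lowest CDKO-labelled embryo lay just above the highest wild-type embryo, and CDKO-labelled embryos 3 and 5 were the highest (log2 fold change 1.28, SE 0.36, adjusted p = 0.00799). Fgf12, Fgf13 and Fgf14 had log2 fold changes of 0.12, -0.08 and -0.17 and did not pass.

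**Figure D3:**
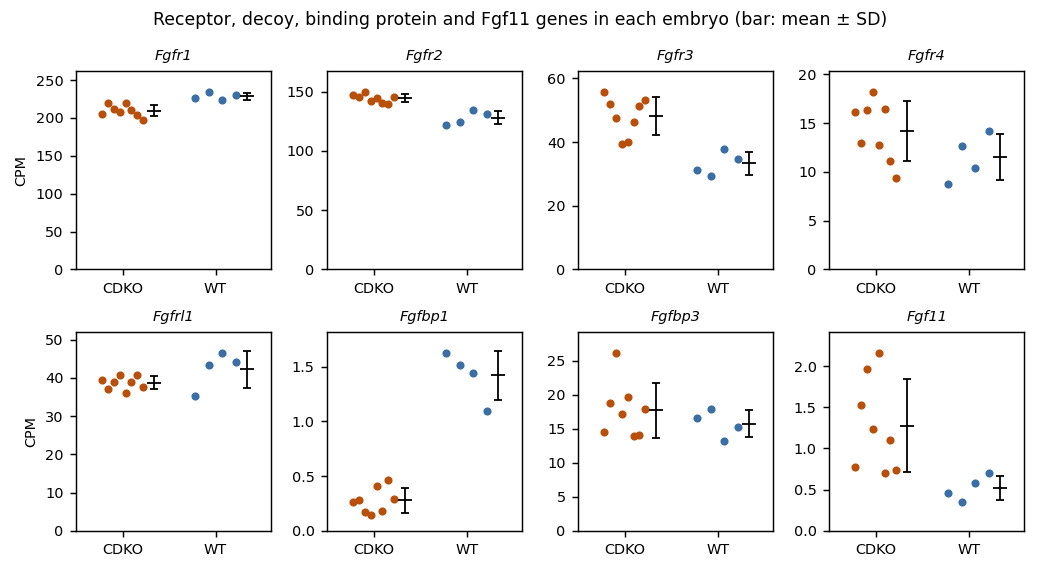
CPM (y axis, from 0) of the 4 receptor genes, the decoy receptor, both binding proteins and Fgf11 in each embryo, CDKO-labelled left of wild type, with the mean ± SD. The groups are separate in Fgfr1, Fgfr2, Fgfr3, Fgfbp1 and Fgf11 and overlap in Fgfr4, Fgfrl1 and Fgfbp3.

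Of the 8 feedback inhibitor genes 4 fell and none rose, and of the 3 ETS genes 2 fell and 1 rose. The 50.0% of feedback inhibitors called is near the 51.5% of all genes, of which 24.9% were lower and 26.6% higher. Spry4, a Sprouty inhibitor of the RAS to ERK cascade, had 14.1, 17.9 and 21.5 CPM as its lowest, median and highest values in CDKO-labelled embryos, against 23.2, 23.6, 23.5 and 27.7 CPM in wild type. The groups did not overlap (log2 fold change -0.48, SE 0.10, adjusted p = 0.000938). Its paralogs did not pass: Spry1 averaged 42.3 ± 3.44 CPM in CDKO-labelled embryos and 39.5 ± 2.94 CPM in wild type (log2 fold change 0.10, adjusted p = 0.249). Spry2 had 42.8, 49.7 and 57.9 CPM as its lowest, median and highest values in CDKO-labelled embryos, against 51.3, 47.1, 45.9 and 53.3 CPM in wild type (0.03, SE 0.08, adjusted p = 0.768). Spred1, which recruits neurofibromin to RAS, had 85.8, 93.5 and 102.4 CPM as its lowest, median and highest values in CDKO-labelled embryos, against 126.6, 118.2, 111.6 and 117.4 CPM in wild type. It fell by 0.34 on the log2 scale with no overlap (SE 0.05, adjusted p = 8.22e-05). Spred2 did not pass (0.08, SE 0.10, adjusted p = 0.489).

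Il17rd, also called Sef, an inhibitor at the receptor and the ERK step, had 83.7, 100.3 and 127.2 CPM as its lowest, median and highest values in CDKO-labelled embryos, against 138.5, 138.2, 133.4 and 130.8 CPM in wild type. Here too the groups did not overlap (log2 fold change -0.37, SE 0.10, adjusted p = 0.00628), and the spread was wider in CDKO-labelled embryos, with an SD of 16.1 CPM there and 3.75 CPM in wild type. CDKO-labelled embryo 2 was the lowest. Dusp6, the ERK phosphatase gene used as an FGF readout, changed by a small amount. It had 92.2, 98.5 and 107.2 CPM as its lowest, median and highest values in CDKO-labelled embryos, against 110.6, 106.4, 107.4 and 112.3 CPM in wild type. All 8 CDKO-labelled embryos lay below the wild-type mean, 7 of them below the wild-type range (log2 fold change -0.15, SE 0.04, adjusted p = 0.0112), and the call was lost without CDKO-labelled embryo 2 and wild-type embryo 1 (adjusted p = 0.0534). Dusp4, a related phosphatase gene, averaged 93.7 ± 16.4 CPM in CDKO-labelled embryos and 105.0 ± 10.03 CPM in wild type and did not pass (-0.17, SE 0.12, adjusted p = 0.275). It passed at -0.32 after correction for GC content and length (adjusted p = 0.03), a setting that moved calls over all genes towards lower.

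Etv4 and Etv5 encode the PEA3-type factors induced by FGF. Etv5 had 38.8, 57.8 and 63.5 CPM as its lowest, median and highest values in CDKO-labelled embryos, against 71.9, 75.1, 68.1 and 77 CPM in wild type. The groups did not overlap, and embryos 7 and 8 were the lowest, at 38.8 and 40.2 CPM (log2 fold change -0.44, SE 0.12, adjusted p = 0.00734). Without those embryos Etv5 remained called at a log2 fold change of -0.32 (adjusted p = 0.000495). Etv4 had 25.1, 33.4 and 46.3 CPM as its lowest, median and highest values in CDKO-labelled embryos, against 44.7, 46.7, 41.2 and 53 CPM in wild type. The groups overlapped through CDKO-labelled embryos 3 and 4. Its log2 fold change was -0.44 (SE 0.15, adjusted p = 0.0229), and it was no longer called when wild-type embryo 2 (adjusted p = 0.0521) or 4 (0.0809) was left out, or without CDKO-labelled embryo 2 and wild-type embryo 1 (0.0643). Etv1 rose, at 5.45 ± 0.6 CPM in CDKO-labelled embryos and 4.33 ± 0.604 CPM in wild type (0.33, SE 0.13, adjusted p = 0.0358). That call was lost in 6 of the 12 fits that each left out 1 embryo, those without wild-type embryos 2 or 4 or CDKO-labelled embryos 1, 3, 5 or 8, with adjusted p of 0.0561 to 0.142. Etv1 and Etv5 each have 1 near-identical pseudogene, so part of their reads may be shared with it.

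**Figure D4:**
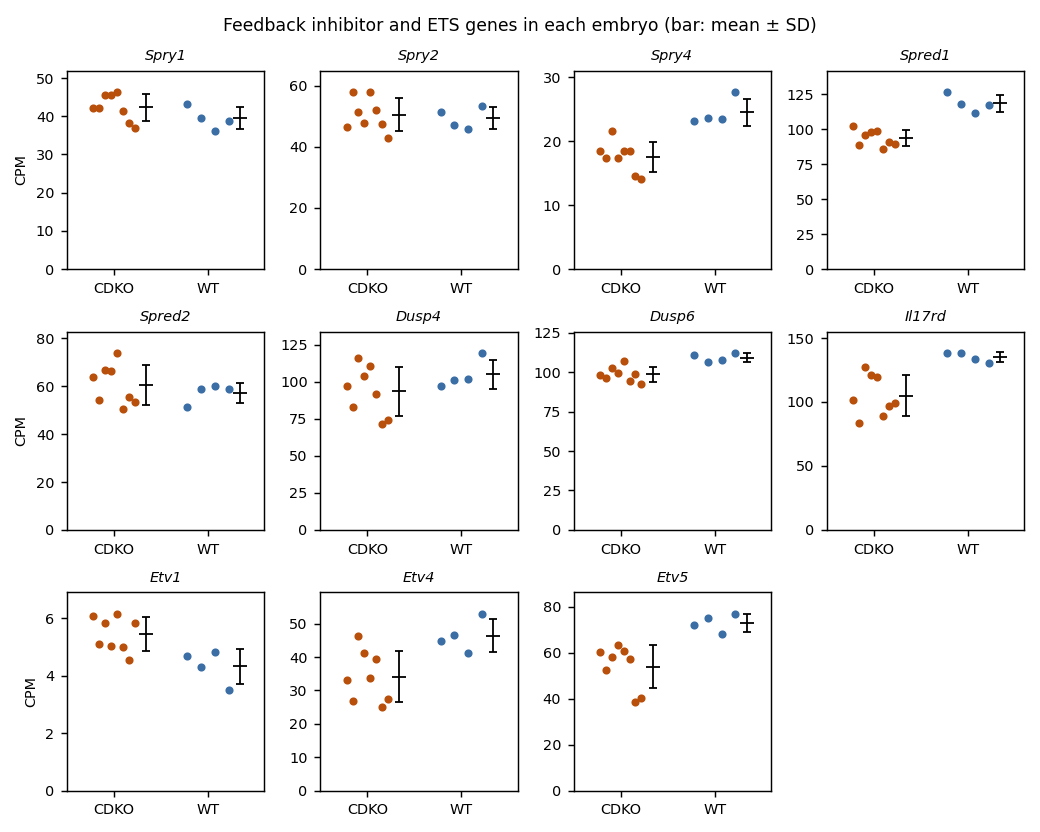
CPM (y axis, from 0) of the 8 feedback inhibitor genes and 3 ETS genes in each embryo, CDKO-labelled left of wild type, with the mean ± SD. Spry4, Spred1, Il17rd and Etv5 show no overlap between groups, while the groups overlap in Spry1, Spry2 and Spred2.

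The CDKO-labelled embryos were not uniform in these genes. Embryos 7 and 8 were the lowest 2 of the 8 in 10 of 33 members (30.3%): Fgf3, Fgf4, Fgf10, Fgf15, Fgfr1, Fgfr4, Spry1, Spry4, Dusp4 and Etv5. Over all genes tested that pair was lowest in 9.28%. Embryos 3 and 5 were the highest 2 in 10 of 33 members: Fgf10, Fgf11, Fgf12, Fgf16, Fgfbp3, Spry1, Spry4, Spred2, Dusp4 and Dusp6. Over all genes that pair was highest in 3.56%. Embryos 7 and 8 were also the highest pair in 11.3% of all genes, but in 1 of 33 members. These pairs were picked after the values were seen, and the genes share libraries, so the shares are a description. Without embryos 7 and 8 the members called numbered 7 higher and 12 lower. Over all 14309 genes tested in that fit, 3896 were higher and 3772 lower. Fgf15 was then higher by 0.41 on the log2 scale (SE 0.12, adjusted p = 0.014), while Fgf3 stood at 0.13 (adjusted p = 0.413). Because embryos 7 and 8 were the lowest in both genes, leaving them out raised these values by construction.

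**Figure D5:**
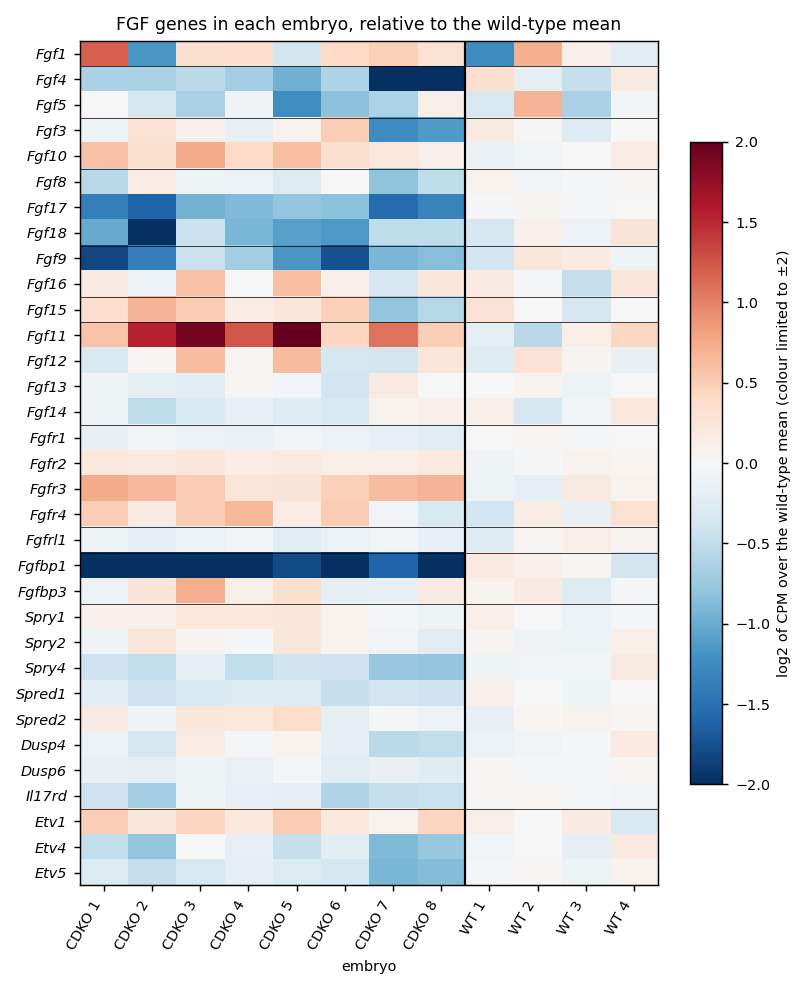
Level of each of the 33 FGF genes tested (rows, by role) in each embryo (columns, CDKO-labelled left of the black line and wild type right of it), as log2 of CPM over the wild-type mean, red above and blue below. Fgfbp1, Fgf17, Fgf18 and Fgf9 are blue in all 8 CDKO-labelled columns, and among the CDKO-labelled columns Fgf3, Fgf4 and Fgf15 are lowest in those of embryos 7 and 8.

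Outside the 40 members, 28 of 29 listed genes that act between the receptor and ERK were tested. Of these 6 rose, 9 fell and 13 did not pass, with a median log2 fold change of -0.03, and the 53.6% called is near the 51.5% of all genes. Araf, a RAF kinase gene, rose to 82.2 ± 2.52 CPM in CDKO-labelled embryos, against 58.6 ± 1.52 CPM in wild type (log2 fold change 0.49, SE 0.04). The phosphatase gene Ptpn11 (-0.29, SE 0.04), the adaptor gene Crkl (-0.37, SE 0.06) and the RAS exchange factor gene Sos1 (-0.46, SE 0.08) fell, with adjusted p between 0.000321 and 5.32e-05. Hras had no row of that name in the table.

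Of 28 co-receptor and heparan sulfate genes 27 were tested, 3 rose, 4 fell and 20 did not pass (median -0.04), so 25.9% were called, against 51.5% of all genes. Corrected for GC content and length, more of them were called, as given below, so this low share depends on the setting. Ext2, which builds the heparan sulfate chain, rose (0.36, SE 0.05), and the syndecan gene Sdc1 (-0.36, SE 0.05), Extl3 (-0.27, SE 0.05) and the sulfotransferase gene Ndst2 (-0.26, SE 0.05) fell. Of 23 other ERK-responsive genes and ETS factors 21 were tested, 4 rose, 3 fell and 14 did not pass (median 0.03), so 33.3% were called, against 51.5% of all genes. More of these genes too were called after that correction. Elk3, an ETS factor gene, rose (0.46, SE 0.07) and so did the immediate early gene Fos (1.45, SE 0.30), which stood at 2.15 ± 0.703 CPM in CDKO-labelled embryos and 0.792 ± 0.225 CPM in wild type. Ets1 (-0.40, SE 0.06) and the cyclin gene Ccnd1 (-0.23, SE 0.05) fell. Ier3, named after its value was seen, rose by 2.74 on the log2 scale (SE 0.54).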

How the data were processed

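RNA was isolated from single embryos and polyadenylated RNA was sequenced as paired reads of 50 bases, per the labels' protocols. The deposited values are raw counts for each gene symbol, 1 column an embryo. The tools named in the submitters' processing notes are STAR, FastQC, DESeq2 and featureCounts, and the build is mm9. No source used here gives versions, annotation or strand setting. Nothing in the labels gives a litter or batch, and replicate numbers follow sample order.

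All 14412 genes that passed filterByExpr were fitted together by the robust quasi-likelihood F test of edgeR 4.0.16 (R 4.3.3), scaled by TMM and with no covariate, with Benjamini-Hochberg adjustment over them and a threshold of 0.05. The SE was derived from the log2 fold change and its F statistic. CPM uses TMM-scaled totals. Levels per kilobase use the longest protein-coding GENCODE transcript of GRCm38, not mm9. The lowest chi-square per degree of freedom between libraries of a group was 3.89, so none was within sampling noise. In simulated counts for 14412 genes the test recovered 56 of 81 genes changed by 1.5-fold, 48 of 58 by 2-fold and 60 of 61 by 4-fold, and 11 of 175 calls were of unchanged genes. The simulation changed few genes and gave both groups the same dispersion for each gene. In the real data 51.5% of genes were called, so these rates need not carry over.

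The members and lists were chosen with earlier results of these data known. Values per embryo are given for members past 0.05 with an absolute log2 fold change of at least 0.5 and for set ligands, receptors and feedback genes, with others added after their values were seen; from each further list the genes with the lowest p are named, at most 4. Alternatives were DESeq2 1.42.0, limma-voom 3.58.1, scaling by upper quartile or RLE, other count filters, correction for GC and length, and embryos left out. Near-identical means at least 200 bases at 95% identity by BLAST 2.17.0. Exon overlaps are those in GENCODE and touch 10 members.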

Additional observations from a re-analysis of the deposited data

Results flagged for a closer look

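Over 78 groups of embryos (33 genes and 6 summed marker lists in each genotype), 2 (2.56%) held an embryo far from the rest; the 95% limit gives about 1 in 20 by chance. Wild-type embryo 4 stood at 27.7 CPM in Spry4, where the other wild-type embryos lay at 23.2 to 23.6 CPM. Wild-type embryo 1 stood at 51.2 CPM in Spred2, where the other wild-type embryos lay at 58.8 to 60.1 CPM.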

How the results depend on the processing

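Over 33 genes and 21 alternatives, 667 of 691 values kept their direction and their side of 0.05, 13 lost a call, 7 gained a call and 4 turned in direction. Of the 17 members called, 13 were called under every alternative run; the exceptions were Fgf4, Dusp6, Etv1 and Etv4. Leaving out 1 embryo at a time gave 4 to 5 members higher and 10 to 12 lower. The turns were of genes near 0 that passed in neither fit: Fgf3, at -0.10 on the log2 scale, ranged from -0.207 to 0.004 with 1 embryo left out and was 0.13 without CDKO-labelled embryos 7 and 8, a choice made after seeing the data; Spry2, at 0.03, ranged from -0.007 to 0.07; and Spry1, at 0.10, was -0.059 when corrected for GC content and transcript length. That setting also raised the co-receptor and heparan sulfate genes called to 13, against 7, and the other ERK-responsive genes called to 14, against 7, and turned the calls over all genes to 3253 higher and 4507 lower, against 3840 and 3583; the cause was not tested. No paired analysis was possible because the labels give no litter, batch or pairing of embryos. Fgfbp1, Fgf11, Fgf1, Fgf5, Fgf12 and Fgf16 rest on few counts, and the 7 untested members are below what this depth can compare. Whether embryos were separate litters is not stated. The p-values weigh the group difference against the spread between embryos and take each embryo as independent, which littermates might not be.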

Other observations

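Fgf3, Fgf4 and Fgf15 are neighbours on mouse chromosome 7 in the RefSeq gene order, and all were lowest in CDKO-labelled embryos 7 and 8; the set was picked after the values were seen. Fgf3 stood at 5.06 and 5.54 CPM in embryos 7 and 8 and at 10.9 to 17.1 CPM in the other 6. Fgf15 stood at 18.2 and 21.1 CPM in embryos 7 and 8 and at 35.1 to 50.8 CPM in the other 6. Of the neighbouring genes, Ano1, just before Fgf3, was also lowest in embryos 7 and 8, at 7.63 and 8.78 CPM against 10.1 to 15.2 CPM in the other 6. Cttn, the fourth gene before Fgf3, was lowest there too, at 260.1 and 258.7 CPM against 279.0 to 301.1 CPM in the other 6. Between them, Ppfia1 was at 109.5 and 112.5 CPM in embryos 7 and 8 and at 110.4 to 130.4 CPM in the other 6, and Fadd at 24.7 and 28.2 CPM in embryos 7 and 8 and at 26.9 to 31.4 CPM in the other 6. Oraov1, after Fgf15, was at 30.8 and 26.4 CPM in embryos 7 and 8 and at 25.5 to 27.0 CPM in the other 6, and Ccnd1 was at 304.5 and 318.7 CPM in embryos 7 and 8 and at 309.7 to 334.6 CPM in the other 6. Tpcn2, beyond Ccnd1, was at 5.12 and 6.97 CPM in embryos 7 and 8 and at 6.19 to 7.34 CPM in the other 6. In embryos 7 and 8 the summed tailbud markers were 183.1 and 215.6 CPM, lower than in the other CDKO-labelled embryos apart from embryo 2 at 89.5 CPM, in which Fgf3 was 14.7 CPM and Fgf15 50.8 CPM. The part of tissue makeup in these values was not tested.

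Oraov1, which lies beside Fgf15, was higher in all CDKO-labelled embryos than in any wild-type embryo, whose values were 16.3 to 18.2 CPM (log2 fold change 0.67). Spry3 had no count in any library. Rows without a count in any library also included Hmgcs1, Eif3j and Btg3. Whether Spry3 reads were present but not assigned was not tested.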
